A study of Mus musculus with 15 samples.

Results

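Laser-captured mouse Purkinje cells (PCs) were read here for 7 genes that clear sterols from cells or carry vitamin E: Cyp27a1, Cyp46a1, Ttpa, Npc1, Npc2, Abca1 and Apoe. They were taken by symbol from the 38561 gene IDs of the count files, of which 36723 have a name in GENCODE M21, and all 7 were found and passed the filter on low counts. Cyp27a1 and Ttpa were chosen on their steep rise in these same samples, so their courses are given as values with no test. The other 5 were not named as chosen for their course and were tested. All 7 were, however, chosen with earlier results of these data known.

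Cells cannot break the sterol ring, so surplus cholesterol leaves the brain mainly after a hydroxyl group is added to its side chain, which lets it cross membranes. CYP46A1 adds that group at carbon 24 and is the brain's main route of cholesterol loss, and CYP27A1 is the mitochondrial enzyme that works at the end of the side chain. NPC2 and NPC1 hand cholesterol out of the lysosome one after the other, ABCA1 pumps it across the plasma membrane, and ApoE is the main acceptor and carrier of lipid between brain cells. TTPA binds alpha-tocopherol, the main form of vitamin E, and moves it between membranes. Human loss of CYP27A1, NPC1, NPC2 or TTPA causes cerebellar ataxia among other signs.

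PCs were cut from the cerebellum of mice of the strain labelled C56/BL6 (male per the study's methods, which write C57/BL6) on postnatal days 0, 4, 8, 14 and 21 (P0 to P21), 3 biological replicates a day, with no transgene or treatment in any of the 5 age groups. Single somata were collected from P4 on, whereas at P0 the methods describe clusters of PCs, so P0 differs from the later ages in capture as well as in age. Total counts on genes ranged from 3409371 to 7814951 over the 15 samples, and 3 counts, the limit that a count of 0 allows, stood for 0.384 to 0.88 CPM (counts per 1000000 counts on genes), depending on the sample. All 6 markers of PCs (Pcp2, Pcp4, Ppp1r17, Car8, Calb1 and Itpr1) had counts in every sample, at least 784 for 5 of them, while Ppp1r17 had 3 counts or fewer in 3 samples of P0 and P4. Their summed level was 5326 ± 736 CPM at P0 and 42889 ± 5282 CPM at P21 (mean ± SD, n = 3, as for all such values here). The samples also held RNA of other cells: the sum of 10 Bergmann glia and astrocyte markers lay between 4006 and 10282 CPM in every sample. The share of tallied reads outside genes was 25.3 to 31.0% at P0 and 18.2 to 20.7% over P14 and P21, and its part in the trends was not tested. Fewer cells of a type and less RNA per cell cannot be told apart in such samples. CPM values were scaled by TMM (trimmed mean of M-values, which sets a common scale from the bulk of genes), and levels are compared between genes as RPKM (TMM-scaled CPM per kilobase of exon); percentages of marker CPM, not per length, serve only to follow a gene beside the markers over age.

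Of the 5 tested genes, Cyp46a1 and Apoe rose with postnatal day and none fell, by the trend test in edgeR (quasi-likelihood, Benjamini-Hochberg adjusted over all genes). Over all 14293 genes tested, 12.1% rose and 14.1% fell. The same 2 genes changed in any pattern over the 5 time points, a test that 19.3% of all genes passed. Between neighbouring time points, 1 of the 5 was called from P0 to P4 (Apoe; 1.97% of all genes were called) and 0 from P4 to P8, P8 to P14 or P14 to P21, where 1.13%, 2.67% and 0.329% of all genes were called. At an unadjusted p under 0.05, Abca1 and Apoe passed from P4 to P8 and Cyp46a1 from P8 to P14, where 11.8% and 13.4% of all genes did. The plot of the 7 courses shows each sample.

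**Figure D1:**
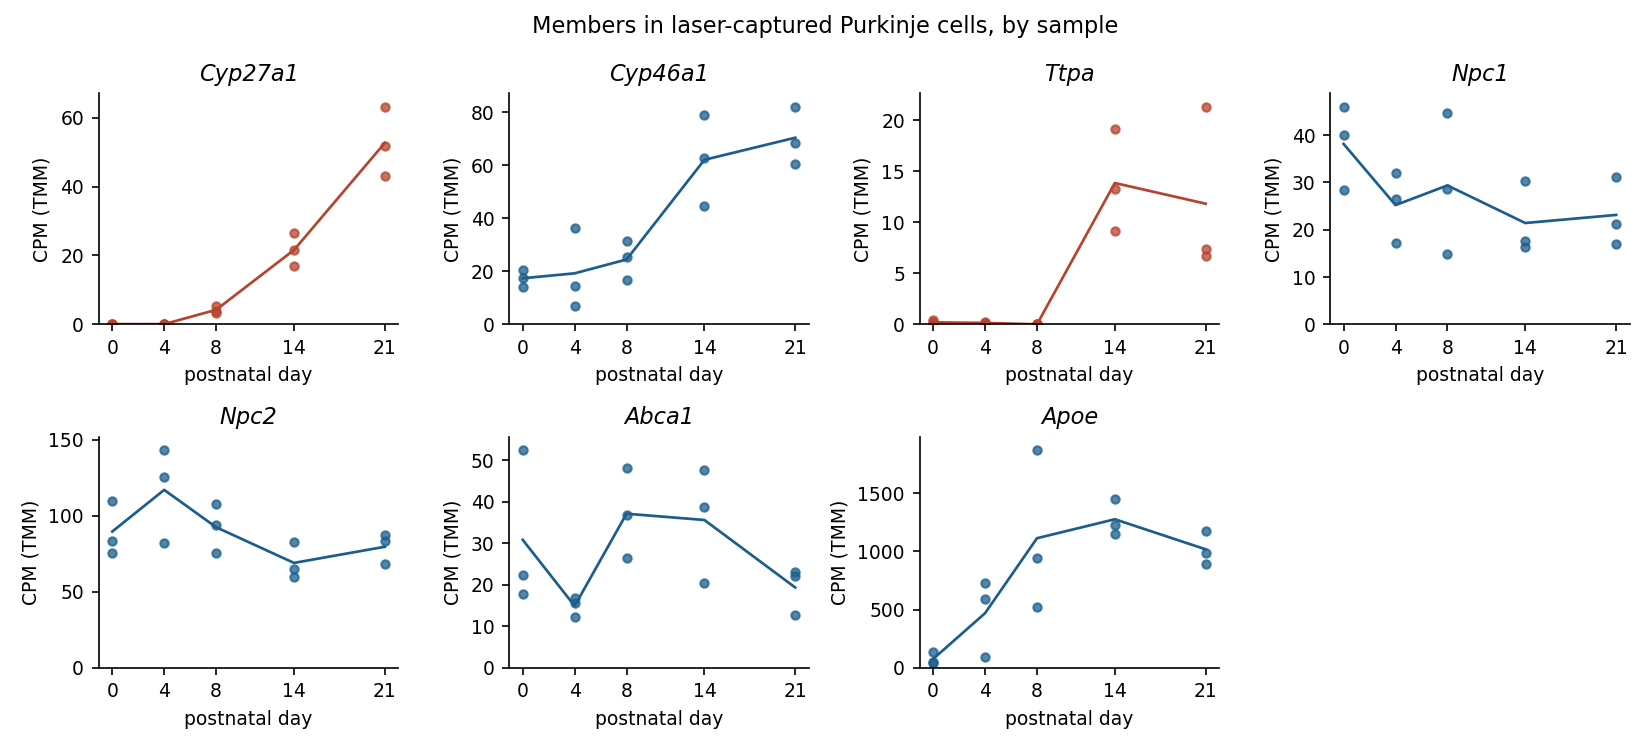
CPM (TMM-scaled, linear axes from 0) of the 7 genes against postnatal day; points are the 3 samples of each time point and lines join the means, in red for the 2 genes chosen on their rise. Cyp27a1 climbs from near 0 to 52.7 CPM at P21, Ttpa is near 0 up to P8 and 13.8 CPM at P14, Cyp46a1 and Apoe rise, and Npc1, Npc2 and Abca1 show no called trend.

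Among the hydroxylases, Cyp27a1 (ENSMUSG00000026170, chr1:74713574-74737892 on the plus strand of GRCm38) was all but undetected at P0 and P4. Its raw counts were 0, 0 and 1 in the 3 samples at P0 and 0, 0 and 1 at P4, then 27, 18 and 21 at P8. They reached 92, 138 and 112 at P14 and 155, 299 and 270 at P21. In CPM the samples had 5.43, 3.43 and 3.79 at P8, then 16.9, 26.4 and 21.5 at P14, and 51.7, 63.3 and 43.2 at P21. Each of these ages lay wholly above the one before it, with no overlap from P4 on. The mean level was 5.12-fold higher at P14 than at P8 and 2.44-fold higher at P21 than at P14. From P4 to P8 the ratio of summed counts over summed totals was 74.0, a size that hangs on the single count at P4. Ratios and limits from summed counts pool the 3 samples of an age and leave out the spread between them. The fitted slope was 0.44 log2 units per day (SE 0.056), without a test and with a size that depends on how counts of 0 are handled.

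Cyp46a1 (ENSMUSG00000021259, chr12:108334381-108362234, plus strand) was present from birth. It had 20.3, 17.6 and 14.2 CPM at P0, 7.09, 14.3 and 36.2 at P4 and 25.4, 16.8 and 31.2 at P8. At P14 it had 62.7, 44.6 and 78.8 CPM, and at P21 68.3, 82.1 and 60.6. The 6 samples of P14 and P21 were all above the 9 earlier ones, and P14 and P21 overlapped each other. The mean was 4.05-fold higher at P21 (70.3 ± 10.9 CPM) than at P0 (17.4 ± 3.09 CPM). It rose by 0.11 log2 units per day (SE 0.021, adjusted p = 5.09e-04, edgeR) and differed over the time points in any pattern (adjusted p = 0.00914, edgeR). The largest step, from P8 to P14, was 1.34 log2 units (SE 0.49), with an adjusted p of 0.199 in edgeR that missed the threshold.

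Per length, the balance between both hydroxylases shifted with age. Cyp27a1 stood at 0.0310 ± 0.0537 RPKM against 5.28 ± 0.941 for Cyp46a1 at P0, at 1.94 ± 0.492 against 7.44 ± 2.21 at P8 and at 9.94 ± 2.18 against 18.9 ± 5.21 at P14. At P21 they stood at 24.3 ± 4.64 and 21.4 ± 3.31 RPKM. The ratio of Cyp27a1 to Cyp46a1 within a sample was 0.184 to 0.324 at P8, 0.408 to 0.896 at P14 and 1.08 to 1.17 at P21. The ranges did not overlap from one of these ages to the next, a pattern that the choice of Cyp27a1 helps to set. The order at P21 hangs on the length used, since with the longest transcript in place of all exons Cyp46a1 ranked above Cyp27a1.

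The upstream 250 bases of both hydroxylase genes are shown because these were the sterol hydroxylases among the 7 whose levels were higher late in the course. They are from RefSeq (GRCm38.p6), 5′ to 3′ on the gene's strand and ending at the base before the RefSeq start. For both genes that start lies upstream of the GENCODE gene start given above. Capitals mark GC boxes (GGGCGG, or CCGCCC on the other strand) and CCAAT boxes (CCAAT, or ATTGG on the other strand). The windows are chr1:74713285-74713534 and chr12:108334066-108334315, both plus strand.
Cyp27a1: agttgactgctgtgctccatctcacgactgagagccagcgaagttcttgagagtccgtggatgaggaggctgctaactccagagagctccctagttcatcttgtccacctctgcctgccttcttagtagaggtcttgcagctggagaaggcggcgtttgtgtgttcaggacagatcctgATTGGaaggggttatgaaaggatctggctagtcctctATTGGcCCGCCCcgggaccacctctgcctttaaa
Cyp46a1: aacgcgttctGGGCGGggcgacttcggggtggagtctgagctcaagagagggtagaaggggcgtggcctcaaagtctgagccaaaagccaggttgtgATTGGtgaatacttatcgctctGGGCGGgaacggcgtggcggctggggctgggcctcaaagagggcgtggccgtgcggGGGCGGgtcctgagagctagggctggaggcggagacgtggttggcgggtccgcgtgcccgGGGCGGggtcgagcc
The Cyp27a1 window had 54% G and C with 1 GC box, at -28, and 2 CCAAT boxes, at -71 and -34, all read on the other strand. Positions give the first base of the match, counted back from the RefSeq start. Cyp46a1 had 67.6% G and C with 4 GC boxes on the gene's strand, at -240, -131, -75 and -15, and 1 CCAAT box on the other strand at -153. Neither held TATAAA or CACGTG on either strand. Of all 32851 RefSeq promoter windows cut to the same 250 bases, 32.7% held a GC box, 33.8% a CCAAT box, 12.4% TATAAA and 6.02% CACGTG, and their median G and C content was 52.4%. These are letter matches in a window and were not tested against the expression values. Abca1, Apoe and Npc2 also had an entry among the promoters, which makes 5 of the 7 genes, and Ttpa and Npc1 were not matched.

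The partner enzymes did not share one course. All 4 genes listed as electron donors (Fdx1 and Fdxr, which feed electrons to mitochondrial enzymes such as CYP27A1, the related ferredoxin Fdx1l, and Por, which serves microsomal ones such as CYP46A1) were tested and 0 of 4 passed the trend test, with a median slope of 0.0062 log2 units per day beside -0.0077 over all genes tested. Fdx1l had the highest level of the 4, 16 ± 9.63 RPKM at P0 and 11.01 ± 3.04 at P21. Of 14 further sterol hydroxylases and bile acid enzymes, 7 could be tested, with a median slope of -0.0060. Among these 1 was called, where 12.1% of all genes rose and 14.1% fell. That one was Cyp39a1, the enzyme that acts on 24-hydroxycholesterol, the product of CYP46A1, and it fell (slope -0.46, SE 0.077, adjusted p = 1.72e-04, edgeR). Its samples had 7.22, 8.56 and 17.5 RPKM at P0 and 3.69, 18.0 and 4.14 at P4. They had 0.33, 3.68 and 0.0591 RPKM at P8, and at P14 the counts were 0, 0 and 11. At P21 all 3 samples had a count of 0, which allows up to 0.188 CPM over the group. Cyp39a1 and Cyp46a1 thus ran in opposite directions. Scp2, a sterol carrier, had the highest level of the list, at 26.1 ± 6.41 RPKM at P0 and 43.0 ± 8.25 at P21 with an adjusted p of 0.118 in edgeR. Cyp7a1, Cyp8b1, Akr1d1, Acox2 and Baat, enzymes of the liver route to bile acids, had 0 counts in every sample.

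**Figure D2:**
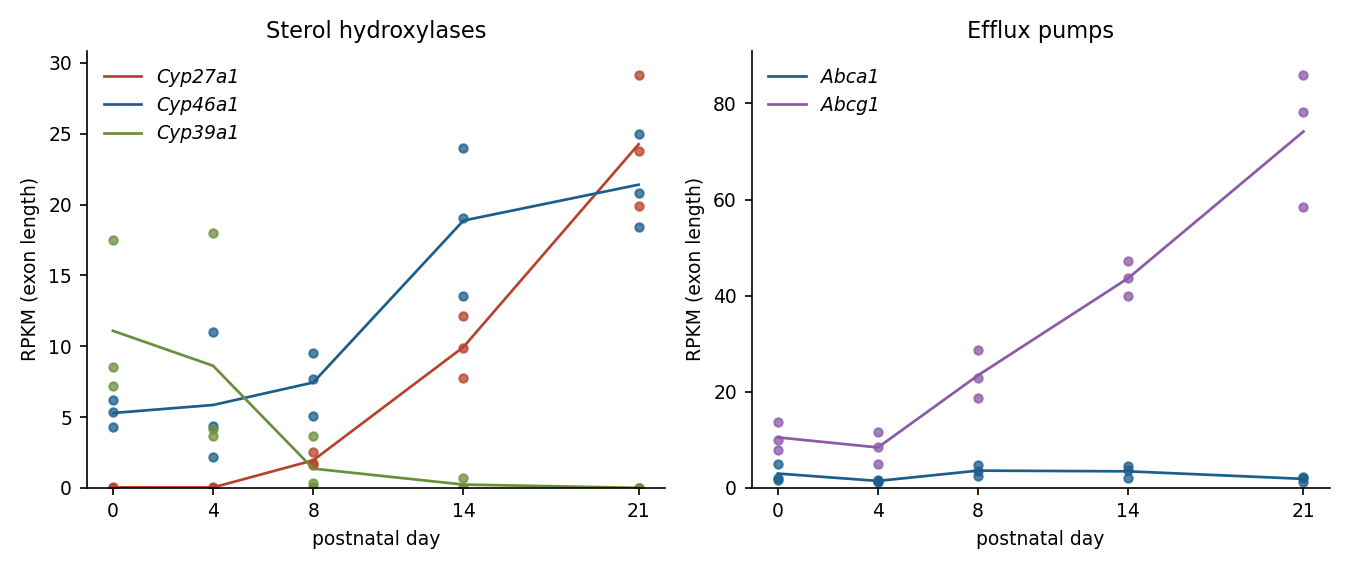
RPKM (TMM-scaled CPM per kilobase of exon, linear axes from 0) against postnatal day; points are single samples and lines join the means of 3. On the left Cyp27a1 and Cyp46a1 stand at 24.3 and 21.4 RPKM at P21, where Cyp39a1 is at 0; on the right Abcg1 reaches 74.2 RPKM while Abca1 stands at 1.87.

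Ttpa (ENSMUSG00000073988, chr4:20007938-20030785, plus strand) appeared later than Cyp27a1 and in one step. Raw counts were 1, 0 and 2 at P0, 1, 0 and 1 at P4 and 0, 0 and 0 at P8. At P14 they were 50, 100 and 69, and at P21 64, 35 and 42. The 6 late samples thus stood apart from the 9 early ones without overlap, and at P8 the count of 0 over the group allows up to 0.198 CPM. P14 was at least 65.2-fold higher than P8, taking 3 counts over the P8 group as its limit. In CPM the samples had 9.19, 19.1 and 13.2 at P14 and 21.3, 7.40 and 6.72 at P21. The P21 samples straddled those of P14: replicate 1 was the highest of all 15 and the other two were below every P14 sample. The slope of 0.38 log2 units per day (SE 0.089) describes a straight line through what was a step.

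Of the 4 markers listed for cerebellar granule neurons, only Gabra6, a receptor subunit, was like Ttpa in being low up to P8 and high at P14. Gabra6 had 4.43, 0 and 8.30 CPM at P8, then 65.6, 160 and 82.4 at P14, and 74.7, 44.0 and 71.5 by P21. Up to P4 no sample had more than 0.734 CPM of Gabra6. P14 replicate 2 was the highest P14 sample for Ttpa and for each of the 4 markers. It had 589 CPM of Neurod1, 56.4 of Pax6 and 205 of Cbln1. At P21 replicate 1 was the highest sample for both Ttpa and Gabra6. The lowest Ttpa there was in replicate 3 and the lowest Gabra6 in replicate 2, and the sum of the 4 markers was highest in replicate 3. Pax6 fell from 134 ± 52.7 CPM at P0 to 23.9 ± 7.19 at P21. Neurod1 was highest at P8 (549 ± 121 CPM), and Cbln1 had 67.9 ± 18.2 CPM at P0 and 122 ± 71.7 at P14. Over age, the sum of all 4 granule neuron markers (Gabra6, Neurod1, Pax6 and Cbln1) ran otherwise. It was 345 to 485 CPM at P0, 541 to 870 at P8, 402 to 1010 at P14 and 258 to 457 at P21. None of the 4 was at 0 over a whole time point. The part of granule neuron RNA in the Ttpa values was not tested. For Cyp27a1, the 6 oligodendrocyte markers summed to 14 to 59.6 CPM at P0 and 625 to 1284 at P21, with 2 of the 6 at 0 in all P0 samples. At P21, replicates 1, 2 and 3 had oligodendrocyte sums of 625, 673 and 1284 CPM and 51.7, 63.3 and 43.2 CPM of Cyp27a1. Their PC marker sums were 45240, 46587 and 36840 CPM. At P14, in the same order, the oligodendrocyte sums were 567, 500 and 486 CPM and Cyp27a1 was at 16.9, 26.4 and 21.5 CPM. The PC marker sums at P14 were 35171, 30705 and 36046 CPM. At P8 the oligodendrocyte sums were 256, 285 and 422 CPM and Cyp27a1 was at 5.43, 3.43 and 3.79 CPM. The PC marker sums at P8 were 17766, 20312 and 19420 CPM. The part of oligodendrocyte RNA in the Cyp27a1 values was not tested.

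The genes most like the 2 chosen ones were sought among 9305 protein-coding genes with a mean of at least 10 CPM, by Pearson's r of log2 CPM over the same 15 samples, which share library and age. Closest to Cyp27a1 were Scn4b, a sodium channel beta subunit (r = 0.990), Rspo3, a secreted enhancer of Wnt signalling (r = 0.987), 1190002N15Rik (r = 0.986), Dgkz, a diacylglycerol kinase (r = 0.982), and Cpeb1, which binds mRNA (r = 0.982). Scn4b went from 0.0639 ± 0.111 CPM at P0 to 147 ± 14.5 at P21 and Dgkz from 51.8 ± 12.1 to 1208 ± 91.7, so a like course was found from very different starting levels. Closest to Ttpa were Prkab2, a subunit of AMP-activated kinase (r = 0.958), Gabarapl1 of the autophagy machinery (r = 0.931), Clic6 (r = 0.926), Zdhhc14, a palmitoyltransferase (r = 0.926), and Rtl8a (r = 0.924). Gabarapl1 lay at 131 ± 12.3 CPM at P0, 155 ± 10.7 at P8, 284 ± 28.8 at P14 and 364 ± 12.7 at P21. Each of these genes near Ttpa had a higher mean at P21 than at P14, whereas Ttpa had 13.8 ± 5.0 and 11.8 ± 8.25 CPM. Between Cyp27a1 and Ttpa themselves r was 0.834. These values describe the samples and carry no test.

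Of 11 other genes for vitamin E handling or of the CRAL-TRIO family to which TTPA belongs, 8 were tested. Of these 1 rose and 2 fell, beside 12.1% and 14.1% of all genes. The median slope was -0.0074 beside -0.0077 over all genes. Clvs1, a neuronal member of the family, rose from 2.81 ± 1.85 RPKM at P0 to 10.3 ± 0.428 at P14 and 7.38 ± 2.78 at P21 (adjusted p = 0.0156, edgeR). Rlbp1, a retinal carrier also made by glia, fell from 9.76 ± 3.45 RPKM at P0 and 25.0 ± 11.3 at P4 to 0.777 ± 0.659 at P14 (adjusted p = 0.00535, edgeR), a call lost with limma-voom (adjusted p = 0.0722) and with log2(day + 1) (0.198). Gpx4, which removes lipid peroxides and has the highest level of the list, fell from 173 ± 15.2 to 135 ± 4.03 RPKM (adjusted p = 0.023, edgeR), a call lost with log2(day + 1) (0.122). Ttpal, a TTPA-like protein, had 6.86 ± 5.74 RPKM at P0 and 4.17 ± 0.416 at P21 with no called trend. Sec14l3, Sec14l4 and Afm, a vitamin E binding plasma protein, had 0 counts in every sample.

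Lysosomal release showed no called change. Npc2 (ENSMUSG00000021242, chr12:84754562-84773152, minus strand) had 110, 83.5 and 75.6 CPM at P0 and 93.8, 75.8 and 108 at P8, and had 83.4, 87.6 and 68.1 at P21. Its highest values were at P4, with 143, 82.4 and 126 CPM, and its lowest at P14, with 82.9, 59.5 and 64.8. All pairs of ages overlapped. The slope was -0.022 log2 units per day (SE 0.012, adjusted p = 0.22, edgeR). Scaled by total counts alone, an alternative added after the data were seen, it was -0.039 and passed (adjusted p = 0.027, edgeR); that scaling moved the median slope of all genes by -0.36 log2 units over the course.

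Npc1 (ENSMUSG00000024413, chr18:12189692-12236400, minus strand) had 46.0, 28.3 and 40.0 CPM at P0, and between 14.9 and 44.7 CPM in the 12 later samples. All pairs of ages overlapped here too, and the slope was -0.031 (SE 0.019, adjusted p = 0.263, edgeR). Npc1 shares sequence with the opposite-strand genes Rmc1 and Gm15956, and the library kit does not mark strand, so reads of that stretch are uncertain. Npc2 was well above Npc1 per length, with 14.7 ± 1.88 against 2.04 ± 0.644 RPKM at P21 and no overlap at any age.

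Around NPC1 and NPC2, 14 genes of lysosomal cholesterol release and of sterol transfer between membranes were listed. All were tested, 3 rose, 3 fell and 8 were not called, with a median slope of 0.018. That is 21.4% rising and 21.4% falling, beside 12.1% and 14.1% of all genes tested. Gramd1b, which carries plasma membrane cholesterol to the endoplasmic reticulum, rose from 4.62 ± 2.34 to 23.9 ± 2.40 RPKM (slope 0.12, adjusted p = 1.83e-06, edgeR), whereas its paralog Gramd1a fell from 11.02 ± 5.73 to 3.73 ± 2.42 (adjusted p = 0.0101, edgeR). Osbpl1a, a late endosomal sterol binder, rose from 10.4 ± 5.11 to 34.0 ± 3.08 RPKM (adjusted p = 2.94e-04, edgeR), and Osbpl2 rose from 6.77 ± 4.96 to 17.9 ± 2.43 (adjusted p = 0.0187, edgeR). The soluble sterol carrier Stard4 fell from 6.28 ± 2.51 to 0.705 ± 0.782 RPKM and Stard3nl, a late endosomal tether, from 16.5 ± 5.28 to 6.64 ± 2.80 (adjusted p = 0.00497 and 0.00262, edgeR). The call of Stard3nl was lost with log2(day + 1) (adjusted p = 0.117, edgeR), and that of Osbpl2 without P0 (0.0574) and under total counts (0.0897). Smpd1, acid sphingomyelinase, had the highest level of the list, 8.78 ± 8.79 RPKM at P0 and 54.7 ± 14 at P14, missed the trend threshold (adjusted p = 0.0576, edgeR) and changed in any pattern (adjusted p = 0.0244, edgeR). In the cholesterol ester cycle 4 of 5 genes were tested, and 2 rose and 0 fell (median slope 0.088). They were Nceh1, an ester hydrolase (8.55 ± 3.14 to 52.6 ± 9.11 RPKM, adjusted p = 1.54e-04, edgeR), and Lcat, which esterifies lipoprotein cholesterol (15.7 ± 8.45 to 106 ± 41.4 RPKM, adjusted p = 9.83e-04, edgeR).

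Abca1 (ENSMUSG00000015243, chr4:53030787-53159895, minus strand), the pump that loads ApoE, had no called trend but an uneven course. It had 22.2, 52.4 and 17.8 CPM at P0 and 16.9, 12.3 and 15.6 at P4. At P8 it had 36.8, 48.2 and 26.4 CPM, at P14 38.8, 20.5 and 47.5, and at P21 23.0, 22.2 and 12.8. The P4 samples lay below all samples of P0, P8 and P14, and those of P21 below those of P8. None of this passed: the P0 to P4 step was -1.05 (SE 0.504, adjusted p = 0.346, edgeR), the P4 to P8 step 1.32 (SE 0.506, adjusted p = 0.298, edgeR), and the test of any pattern gave an adjusted p of 0.218 in edgeR. The slope was -0.0075 (SE 0.027, adjusted p = 0.875, edgeR) and changed sign when P0 replicate 2 (0.014) or P21 replicate 3 (0.0068) was left out.

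Among 6 other efflux pumps, all tested, 2 rose and 0 fell (beside 12.1% and 14.1% of all genes), with a median slope of 0.036. Abcg1, which exports sterols to lipidated particles, rose by 0.15 log2 units per day (SE 0.016, adjusted p = 1.06e-06, edgeR). It had 10.01, 13.7 and 7.78 RPKM at P0 and 78.3, 58.4 and 85.8 at P21, with no overlap. Mean Abcg1 was thus at 10.5 RPKM beside 2.97 for Abca1 at P0, and at 74.2 beside 1.87 at P21. Abca5 rose from 1.56 ± 0.783 to 3.87 ± 1.0 RPKM (adjusted p = 0.0184, edgeR). Of 6 genes for the sterol-sensing liver X receptors, their retinoid X partners and Mylip, 0 rose and 2 fell (median slope -0.0095). The retinoid X receptor Rxrg fell from 20.6 ± 20.1 RPKM at P0 to 0.0928 ± 0.161 at P21 (adjusted p = 1.90e-04, edgeR), and Mylip, which marks lipoprotein receptors for degradation, from 6.15 ± 4.62 to 0.948 ± 0.199 (adjusted p = 0.0197, edgeR). The calls of Rxrg and Mylip were lost with limma-voom (adjusted p = 0.158 and 0.0909), and that of Mylip also without P0 (adjusted p = 0.0918, edgeR), with log2(day + 1) (0.0528) and without P0 replicate 2, P21 replicate 1 or P21 replicate 3 (0.0508 to 0.0803). That of Abca5 was lost without P21 replicate 2 (adjusted p = 0.0701, edgeR) and under total counts (0.075).

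**Figure D3:**
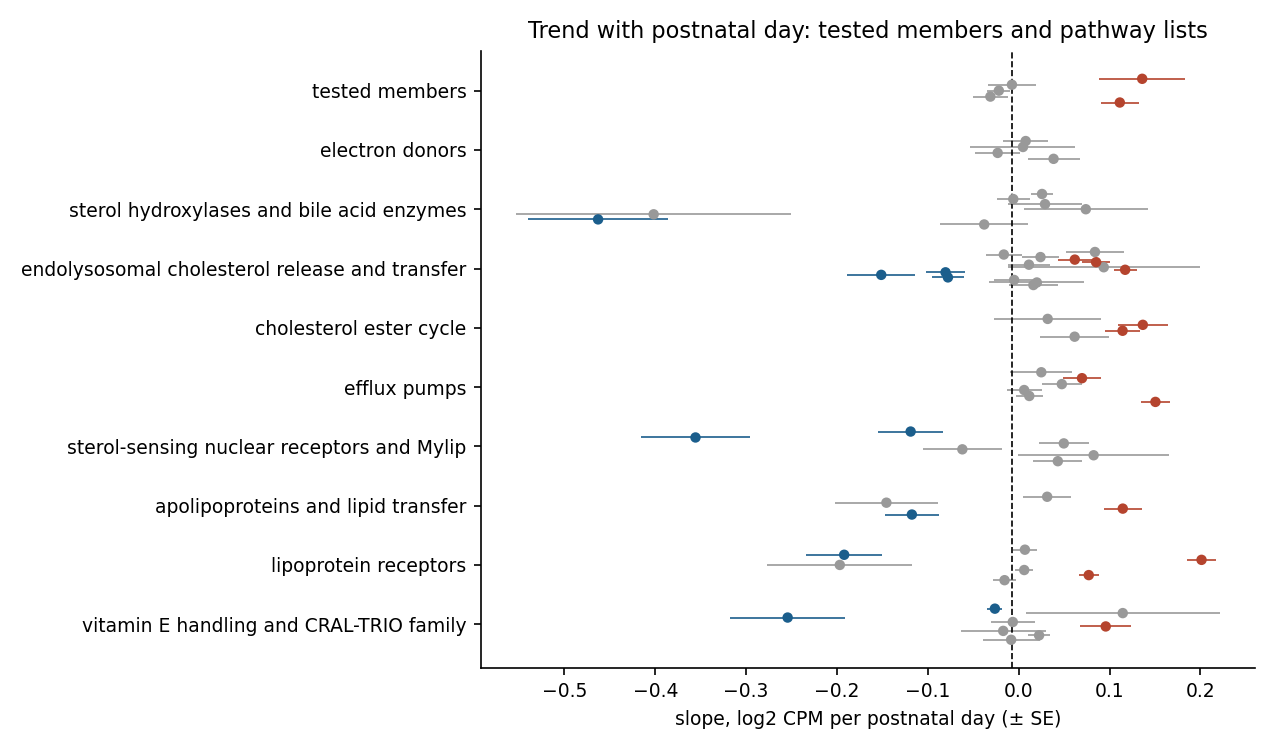
Slope of log2 CPM per postnatal day with its SE for the 5 tested genes and each tested gene of the 9 pathway lists; red rose and blue fell (adjusted p under 0.05, edgeR), grey was not called, and the dashed line is the median of all 14293 genes (-0.0077). Of the 60 pathway genes tested, 11 rose, 10 fell and 39 were not called, or 18.3% and 16.7% beside 12.1% and 14.1% of all genes.

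Apoe (ENSMUSG00000002985, chr7:19696109-19699188, minus strand) had the highest level of the 7 per length (RPKM) at every age. In CPM its mean at P0 (76.3) was below that of Npc2 (89.7). Apoe had 44.7, 134 and 49.9 CPM at P0, 728, 587 and 94.4 at P4 and 943, 527 and 1871 at P8. It then had 1451, 1227 and 1152 CPM at P14 and 895, 988 and 1172 at P21. Every sample from P8 on was above every P0 sample, whereas P4 replicate 3 fell within the P0 range and P8 to P21 overlapped one another. The mean was 16.7-fold higher at P14 than at P0 and 13.3-fold higher at P21. Apoe differed over the time points in any pattern (adjusted p = 0.00183, edgeR) and rose from P0 to P4 by 2.62 log2 units (SE 0.605, adjusted p = 0.0351, edgeR). That step kept its call in 5 of the 15 fits that left out 1 sample. As a line over all 21 days it rose by 0.14 per day (SE 0.047, adjusted p = 0.0399, edgeR), and without the P0 samples the slope was 0.051 (adjusted p = 0.367, edgeR). Leaving out P4 replicate 3 or any one sample of P0 or P14 also lost the trend call, with adjusted p of 0.0545 to 0.0914 in edgeR.

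Apoe is made chiefly by astroglia, and glial markers moved in these samples. The 10 glial markers (Slc1a3, Gdf10, Sept4, Aqp4, Gfap, Slc1a2, Fabp7, Aldh1l1, Gja1 and Hopx; none at 0 over a whole time point) summed to 4863 ± 815 CPM at P0 and 7482 ± 1976 at P4, peaked with 9596 ± 972 at P8, and then stood at 7444 ± 263 (P14) and 4891 ± 951 (P21). P4 replicate 3, low in Apoe, was the lowest of the P4 samples for the glial sum (5428 CPM). At P4, P8 and P21 the same sample was highest for Apoe and for the glial sum. At P0 and P14 the sample highest in Apoe had the lowest glial sum. These were P0 replicate 2 (134 CPM of Apoe, glial sum 4141) and P14 replicate 1 (1451 CPM, glial sum 7171). Up to P8 the largest part of the sum was Fabp7, a marker of immature glia. Fabp7 had 2679 ± 591 CPM at P0, 4653 ± 291 at P8 and 185 ± 64.1 at P21. At P14 and P21 the largest part was Slc1a3, with 3518 ± 298 and 2508 ± 534 CPM. Of the 10 markers 8 had a higher mean at P21 than at P0 (Slc1a3 1435 ± 217 and 2508 ± 534 CPM, Sept4 73.6 ± 29.0 and 758 ± 47.0), and Fabp7 and Aldh1l1 had a lower one. Apoe as a percentage of the glial sum was 0.869 to 3.24% at P0 and 1.74 to 7.77% at P4, went through 6.21 to 18.2% at P8 and 14.97 to 20.2% at P14, and reached 18.8 to 24.7% by P21. Against Slc1a3 alone it was 2.96 to 10.4% at P0, 6.26 to 36.7% at P4 and 25.3 to 72.6% at P8, with 31.0 to 45.7% at P14 and 36.8 to 49.0% by P21, so that the ranges overlapped from P8 on. The 5 markers of microglia, which also make Apoe (Cx3cr1, Csf1r, C1qa, P2ry12 and Tmem119), summed to at most 25.4 CPM in any sample. The part of glial or microglial RNA in the Apoe and Abca1 values was not tested.

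**Figure D4:**
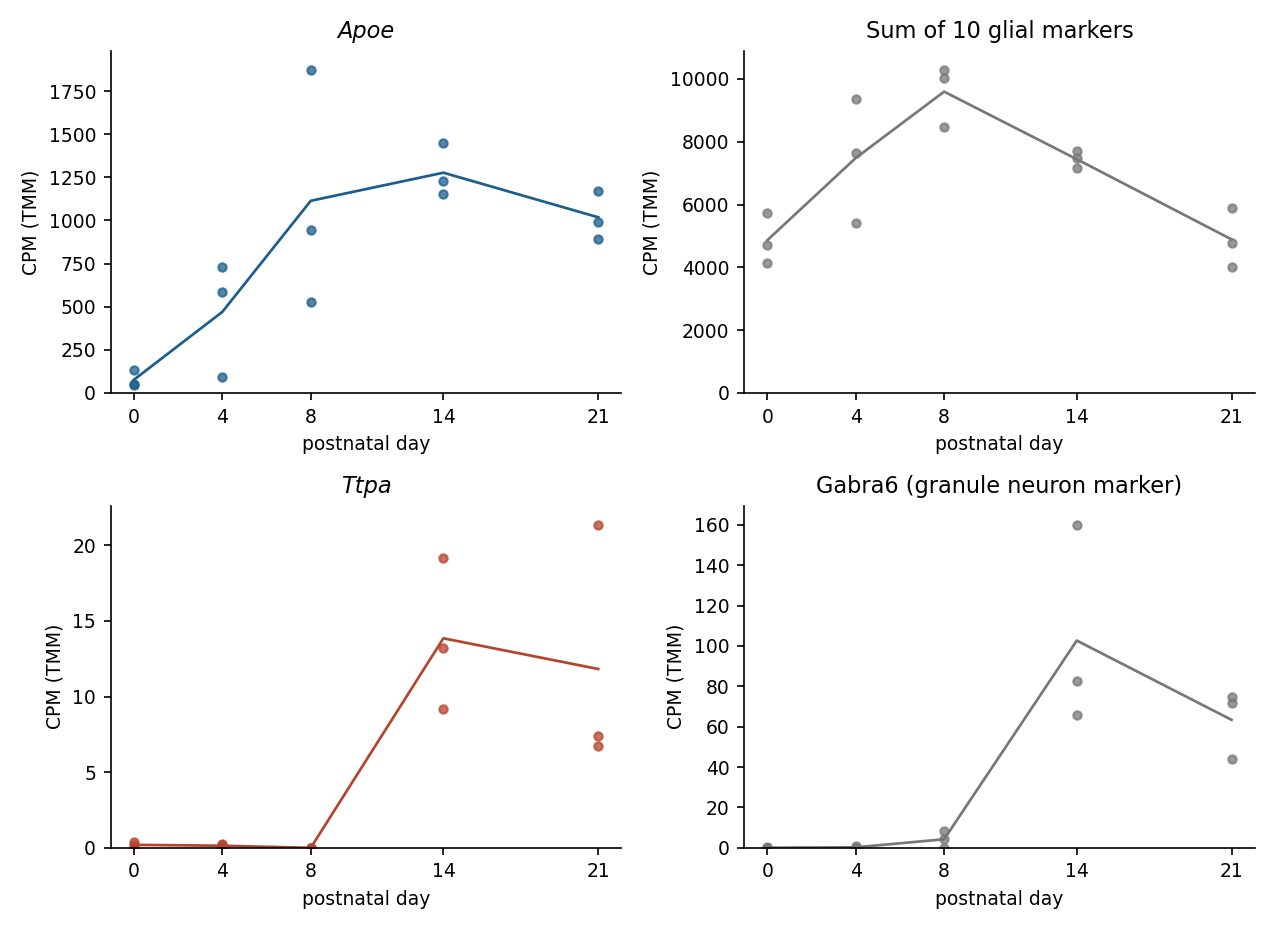
CPM (TMM-scaled, linear axes from 0) by sample against postnatal day, with lines that join the means of 3. Apoe is set beside the sum of 10 Bergmann glia and astrocyte markers, and Ttpa beside the granule neuron marker Gabra6. The other listed granule neuron markers, Neurod1, Pax6 and Cbln1, ran otherwise over age and are not drawn. The glial sum is highest at P8 (9596 CPM) and 4891 CPM at P21, with Fabp7 going from 4653 to 185 CPM between these ages and 5 of the 10 markers having a higher mean at P21 than at P8; Apoe stands at 1018 CPM at P21, and Ttpa and Gabra6 are both low up to P8 and high at P14.

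Of the other apolipoproteins and lipid transfer proteins, 4 of 5 were tested, 1 rose and 1 fell (median slope -0.043). The shares over all genes were 12.1% rising and 14.1% falling. Clu, a lipid-binding chaperone of astrocytes and neurons, rose from 10.01 ± 3.91 to 70.2 ± 24.4 RPKM (adjusted p = 4.31e-04, edgeR), and Apod fell from 22.6 ± 5.24 to 5.45 ± 0.550 (adjusted p = 0.00588, edgeR). Of 7 lipoprotein receptors, 2 rose and 1 fell (median slope 0.0060). Sorl1, a sorting receptor that binds ApoE, rose from 13.1 ± 5.78 to 186 ± 15.5 RPKM (slope 0.20, adjusted p = 7.59e-08, edgeR), and Lrp8, a receptor for ApoE and Reelin, from 14.03 ± 2.19 to 35.4 ± 5.21 (adjusted p = 3.49e-05, edgeR). Scarb1, which takes up cholesterol esters, fell from 4.79 ± 3.57 to 0.336 ± 0.330 RPKM (adjusted p = 0.00191, edgeR), a call lost with limma-voom (adjusted p = 0.0643). The chaperone Lrpap1 had the highest level of the list, 79.1 ± 14.01 RPKM at P0 and 74.7 ± 26.4 at P21, with no called trend. Over all 9 lists 12 of 72 genes could not be tested, 8 of them with 0 counts in every sample and the rest with at most 59 counts in all.

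Set side by side per length, the order of the 7 genes changed with age. At P0 it was Apoe (35.7 ± 23.5 RPKM), Npc2 (16.5 ± 3.32), Cyp46a1 (5.28 ± 0.941), Npc1 (3.37 ± 0.796), Abca1 (2.97 ± 1.82), Ttpa (0.0570 ± 0.0580) and Cyp27a1 (0.0310 ± 0.0537). Of neighbours in that order, Npc1 overlapped Abca1 and Ttpa overlapped Cyp27a1, and the others were apart in all samples. At P21 it was Apoe (476 ± 66.0 RPKM), Cyp27a1 (24.3 ± 4.64), Cyp46a1 (21.4 ± 3.31), Npc2 (14.7 ± 1.88), Ttpa (3.39 ± 2.37), Npc1 (2.04 ± 0.644) and Abca1 (1.87 ± 0.548). There Cyp27a1 overlapped Cyp46a1, Ttpa overlapped Npc1 and Npc1 overlapped Abca1, and the other neighbours were apart. With the longest transcript as the length, Npc1 and Cyp46a1 each moved up 1 place at P21.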

How the data were processed

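Purkinje cells were laser microdissected and libraries made with the SMARTer Ultra Low kit. Per the submitters' processing notes and the study's methods, the authors trimmed reads with cutadapt 1.2.1, aligned them with GSNAP to mm10 and counted reads on Ensembl genes by HTSeq 0.5.3p9; the deposited values are raw counts per gene, 1 file per sample, and whether counting used strand is not given in the sources used here. Rows that name no gene (18.2 to 31.0% of tallied reads) were left out. Samples were grouped by the time point in their titles.

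Gene names, exon lengths and coordinates were taken from GENCODE M21 (GRCm38), and promoter sequences from RefSeq. Counts were tested in edgeR 4.0.16 (TMM scaling, filterByExpr, quasi-likelihood F test; R 4.3.3) with postnatal day as a number and, in a second fit, time point as a factor, and p-values were adjusted by Benjamini-Hochberg over all 14293 genes at a threshold of 0.05. The biological coefficient of variation was 0.757 in the fit with postnatal day as a number, where it also holds departures of the ages from a straight line. The scripts were tested on simulated data. Replicates of a time point differed by more than sampling noise. RPKM is TMM-scaled CPM over summed exon length. Alternatives were DESeq2 1.42.0 size factors, upper quartile scaling, the DESeq2 test, limma-voom (limma 3.58.1), no filter, log2(day + 1), no P0 samples, a replicate block, each sample left out, total-count CPM and longest-transcript lengths; scaling by total counts in edgeR was added after seeing the data.

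The 7 genes, the pathway lists and the marker lists were chosen with earlier results of these data known, and no list was tested as a set. Named were the 7 genes, up to 4 called genes of each list in each direction by smallest p, the gene of each list with the highest mean RPKM, and the 5 genes most like Cyp27a1 and Ttpa; other list genes named were chosen after their values were seen. The 3 vascular markers (Flt1, Cldn5, Pecam1) together made up 15.99 to 120.2 CPM per sample.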

Additional observations from a re-analysis of the deposited data

How the results depend on the processing

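The trend of Cyp46a1 and the changes of Cyp46a1 and Apoe in any pattern passed under each alternative that gave them. The number of the 5 tested genes that rose, 2, was 1 to 2 with 1 sample left out and 1 under total counts (where 1 fell, Npc2), without P0 and with the replicate block, Apoe being the one lost. The number called from P0 to P4, 1, was 0 to 1 with 1 sample left out; this Apoe step kept its call only without P0 replicate 2, P4 replicate 3, P8 replicate 2, P8 replicate 3 or P21 replicate 3 (adjusted p over the 15 fits 0.00281 to 0.139, edgeR), and the count was 0 with limma-voom and with the replicate block. The cause was not tested. The slope of Abca1 ran from -0.017 to 0.014 with 1 sample left out and was 0.0034 without P0. The pathway genes that fell, 10, were 6 with log2(day + 1). For the pathway genes called, 488 of 504 slopes under alternatives kept their call and direction and 16 lost the call. Genes could also gain a call: 11 rose, against 13 with log2(day + 1), and 10 fell, against 12 with the DESeq2 test.

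Taken over all genes tested, same-numbered samples did not deviate together. Of 30 same-numbered pairs of samples 0 had deviations from the group means correlated over 0.1, and 3 of 15 samples were closest to their own number. A batch that moves only some genes may not show in such correlations. With the replicate block the tested genes rising went from 2 to 1 (Apoe, adjusted p = 0.058, edgeR) and those called from P0 to P4 from 1 to 0. Scaling by total counts turned the share of rising calls among all calls from 46.1% to 30.0%. At these depths a count of 0 allows up to 3 counts, which limits Cyp27a1 up to P4 and Ttpa up to P8.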

Other observations

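Outside the genes named by rule, Vldlr, a receptor for Reelin and ApoE, moved without a straight trend; it was chosen after its values were seen. It changed in any pattern (adjusted p = 0.0423, edgeR), with 29.2 ± 2.31 RPKM at P0 and 38.6 ± 2.44 at P4 (mean ± SD, n = 3), a low of 24.9 ± 0.824 at P8, and 36.8 ± 5.50 at P21.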
